A study of Mus musculus with 24 samples.

Results

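The genes described here are those of the cell-cycle exit machinery of muscle: the pocket proteins Rb1, Rbl1 and Rbl2, the cyclin-dependent kinase (CDK) inhibitors Cdkn1a, Cdkn1b, Cdkn1c and Cdkn2c, and the D cyclins Ccnd1, Ccnd2 and Ccnd3. They were chosen by their role, with earlier results of these data known. They were found by symbol, as 10 of the 55487 genes listed, and all 10 passed the filter on low counts. RNA came from C2C12 myotubes, made by differentiation of a clonal mouse myoblast line under 5 % O2 and labelled wild type and day 5. The groups of 6 biological replicates were myotubes kept for 2 h at 5 % O2 without stimulation (5 % CTRL), for 2 h at 1 % O2 without stimulation (1 % CTRL), and at either level with electrical stimulation in repeated short bouts after the exposure (5 % STIM and 1 % STIM). All 4 groups share the cell line and the differentiation at 5 % O2. A differentiated culture of this line holds fused myotubes together with unfused cells, and each library is the RNA of the whole culture.

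Leaving the cell cycle is part of becoming a muscle fibre. D cyclins bind and activate CDK4 and CDK6, these kinases phosphorylate the pocket proteins, and phosphorylated pocket proteins release the E2F transcription factors that drive S-phase genes. CDK inhibitors hold the kinases back, so that unphosphorylated Rb1 (RB), Rbl1 (p107) and Rbl2 (p130) keep E2F targets silent, and in differentiating myoblasts Cdkn1a (p21) and Ccnd3 are known to rise and stay high.

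Reads counted on genes numbered 26541858 to 28173745 per library, as recovered from the normalized counts. The normalized count is the read count of a gene divided by the size factor of its library. Myotube markers were all detected, with a summed level of 454269 to 566579 normalized counts per library, while Ptprc, Adgre1 and Epcam, which mark leukocytes, macrophages and epithelium, were at 0 in 21, 23 and 22 of the 24 libraries and Pecam1, of endothelium, did not exceed 5.72. Replicate 1 of 1 % CTRL stood apart from its group: its root mean square log2 distance from the group median was 0.465, against 0.313 to 0.375 in the other 23 libraries. Main log2 differences and list counts that rest on it are therefore given with and without it. Means, family sums and counts of members called are given with all libraries unless stated.

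Rbl1 and Cdkn1b are the members that differed most between 1 % and 5 % O2, and their promoter sequences are shown so that these can be read beside the values. The windows run from 250 bases before to 50 bases after the transcription start (RefSeq, GRCm38.p6) and are written 5′ to 3′ along the gene, on the minus strand at chr2:157204485-157204784 for Rbl1 and on the plus strand at chr6:134920151-134920450 for Cdkn1b. The annotated genes extend from 157145893 to 157204534 on chromosome 2 (Rbl1) and from 134920401 to 134925513 on chromosome 6 (Cdkn1b) in GRCm38. Capitals mark matches to the E2F motif TTTCGCGC or TTTGGCGC and to the CCAAT box, each on either strand.
Rbl1: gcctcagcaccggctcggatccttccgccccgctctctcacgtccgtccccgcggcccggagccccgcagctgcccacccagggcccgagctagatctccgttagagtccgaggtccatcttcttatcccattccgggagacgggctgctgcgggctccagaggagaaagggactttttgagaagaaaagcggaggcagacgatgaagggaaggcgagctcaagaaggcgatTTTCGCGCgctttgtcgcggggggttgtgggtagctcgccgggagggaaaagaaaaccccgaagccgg
Cdkn1b: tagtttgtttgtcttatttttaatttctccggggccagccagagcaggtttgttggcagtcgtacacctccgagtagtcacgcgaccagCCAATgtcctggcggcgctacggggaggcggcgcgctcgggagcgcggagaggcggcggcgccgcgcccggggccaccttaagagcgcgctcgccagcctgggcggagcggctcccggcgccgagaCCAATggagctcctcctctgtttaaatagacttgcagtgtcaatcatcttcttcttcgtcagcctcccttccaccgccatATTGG
The Rbl1 window held 1 E2F match, which starts 18 bases before the transcription start, and 0.813 % of the 32851 windows of this length held such a match. No match to those letters lay in the windows of Rbl2, Cdkn1a, Cdkn1b, Cdkn2c and Ccnd3, the other members with a window. The Cdkn1b window held 3 CCAAT matches, where 37.4 % of all windows held at least 1. Both windows also held 1 match to the hypoxia response core ACGTG or GCGTG, a sequence found in 43.8 % of all windows. Windows of the other members, Rbl2, Cdkn1a, Cdkn2c and Ccnd3, held this core too, though the first windows of Cdkn1a and Ccnd3 did not. An E-box (CANNTG, in 72.3 % of windows) occurred in the Rbl1 window and not in that of Cdkn1b, and the TATA box TATAAA (in 13.6 % of windows) in neither. A match describes the letters only. Windows for Rb1, Cdkn1c, Ccnd1 and Ccnd2 were not used here.

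Levels between genes are compared per kb of exon, averaged over the 24 libraries. Cdkn1a, the p53-responsive inhibitor p21, was the most abundant of the members at 10305 normalized counts per kb, rank 92 of 14527 genes tested with an exon length. Ccnd3 followed at 783 and Rb1 at 604 per kb, above Ccnd1 (426), Cdkn1b (302) and Rbl2 (231). Ccnd2 (127), Cdkn2c (110), Rbl1 (60.7) and Cdkn1c (59.2) were the least abundant. Within each family, the same member led in each of the 4 groups. Rb1 made up 63.3 % to 72.2 % of the pocket protein transcripts per kb, Cdkn1a 95.1 % to 97.9 % of the 3 CIP/KIP inhibitors, which bind a broad range of cyclin-CDK complexes, and Ccnd3 57.1 % to 59.4 % of the D cyclins, as group means. Of the INK4 inhibitors, which bind CDK4 and CDK6 alone, Cdkn2c (p18) and Cdkn2d (p19) were present. Cdkn2a and Cdkn2b had 0 reads in each of the 24 libraries. By counting error, this allows up to 3 reads of each gene over the 24 libraries together.

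**Figure D1:**
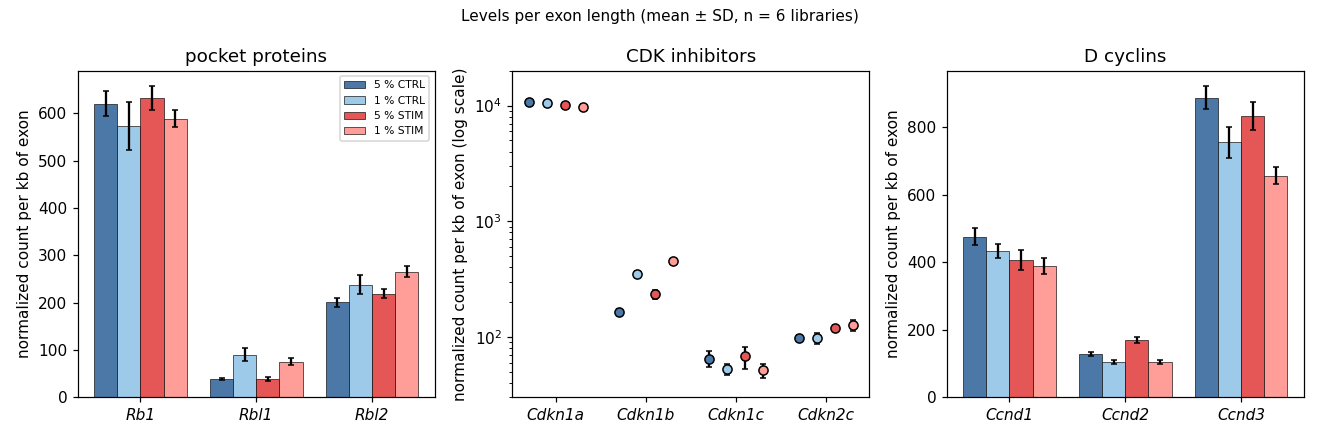
Normalized count per kb of exon (y axis, logarithmic for the CDK inhibitors) of each member in the 4 groups, as mean ± SD of 6 libraries. Cdkn1a lies far above the other inhibitors in each group, and Ccnd3 above Ccnd1 and Ccnd2.

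The effect of 2 h at 1 % O2 was addressed first by comparing 1 % CTRL with 5 % CTRL. Rbl1 was 2.39-fold and Cdkn1b 2.13-fold higher in the ratio of means, Rbl2 rose slightly, and the 3 D cyclins, Rb1 and Cdkn1c fell slightly, while Cdkn1a and Cdkn2c were not called. That is 3 members higher and 5 lower with a limma adjusted p-value under 0.05, against 59.9 % of all 14541 genes tested that were called (29.4 % higher and 30.5 % lower). The groups did not overlap for 5 of the 10 members and for 38.2 % of all genes tested. The median log2 difference of the members was -0.06, against 0.0015 for all genes. With libraries rescaled to the same total, 39 % of all genes were higher and 23.2 % lower, and 5 members were called, 3 higher and 2 lower, since Rb1, Cdkn1c and Ccnd1 were no longer called. In bulk RNA, a change in the number of cells of a type and a change in RNA per cell cannot be told apart.

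**Figure D2:**
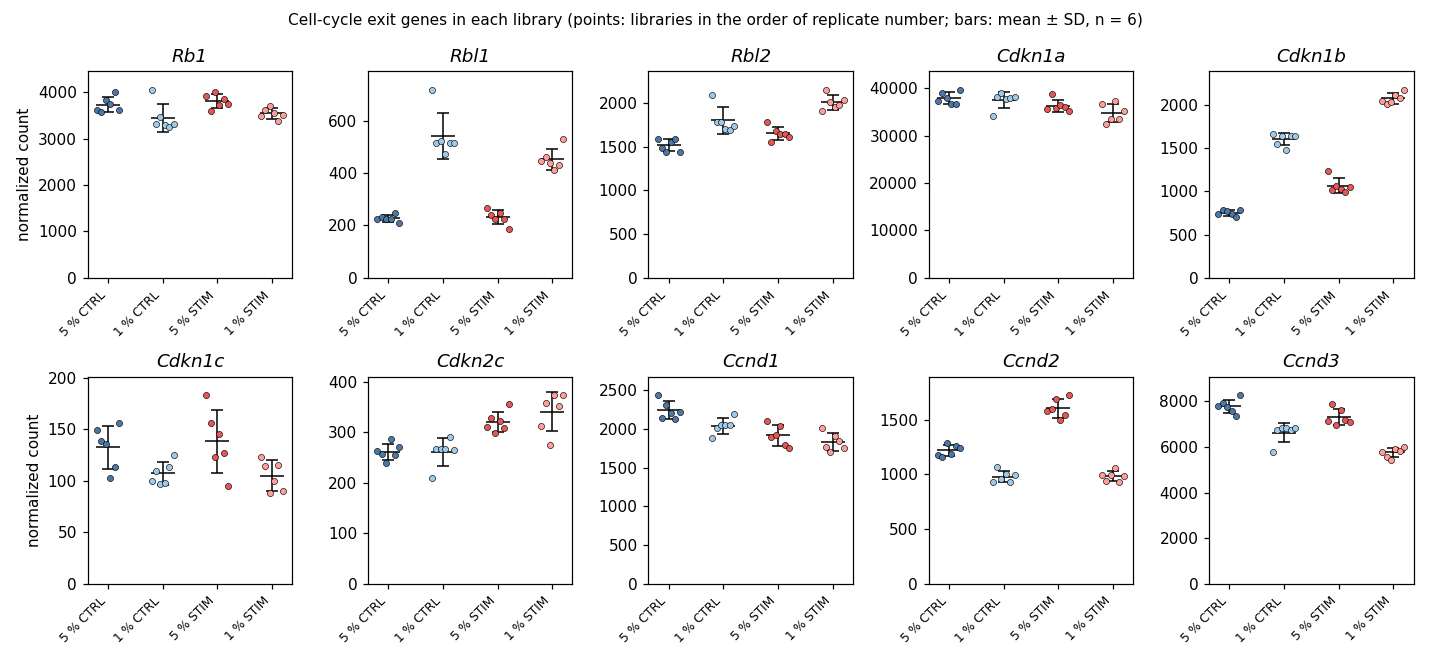
Normalized count (y axis, from 0) of each member in each library of the 4 groups, with bars for the mean ± SD of 6 libraries. Cdkn1b separates the 4 groups without overlap, Rbl1 separates 1 % from 5 % O2, Ccnd2 is highest in 5 % STIM, and Cdkn1a differs little between groups.

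Among the pocket proteins, Rbl1, which represses E2F targets together with E2F4 and is itself known as an E2F target, rose most. Its normalized counts in 5 % CTRL were 208 at the lowest, 226 at the median and 247 at the highest, and in 1 % CTRL they were 474, 515 and 718. Each 1 % CTRL library lay above each 5 % CTRL library, and the highest value was that of replicate 1, with the other 5 at 522 or less. The mean went from 227 ± 12.7 to 543 ± 87.6 (SD, n = 6), a log2 difference of 1.24 on the log2(normalized count + 1) scale (SE 0.081, limma adjusted p = 5.73e-15). Without replicate 1 of 1 % CTRL the log2 difference was 1.16 (limma adjusted p = 7.28e-17).

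Rbl2, the pocket protein that predominates in quiescent cells as part of the repressive DREAM complex, moved in the same direction by less. It ranged from 1439 through a median of 1520.05 to 1584 normalized counts in 5 % CTRL and from 1690.5 through 1764 to 2097 in 1 % CTRL, again without overlap. The log2 difference was 0.25 (limma adjusted p = 7.55e-06), and 0.20 without replicate 1 of 1 % CTRL, which held the highest value.

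Rb1, needed for permanent exit from the cycle in muscle, fell by 0.12 on the log2 scale (limma adjusted p = 0.0141). The 5 % CTRL libraries held 3568, 3678 and 3993 normalized counts at the lowest, median and highest, and the 1 % CTRL libraries 3259, 3319 and 4054. Replicate 1 of 1 % CTRL was above all 5 % CTRL libraries and the other 5 were below all of them. Leaving it out gave a log2 difference of -0.16 (limma adjusted p = 3.63e-05), whereas rescaling the libraries to the same total gave -0.03 and no call. Per kb, the share of Rb1 in the pocket protein sum went from 72.2 % to 63.6 % and that of Rbl1 from 4.42 % to 9.99 %. The sum itself was 859 ± 32.1 in 5 % CTRL and 903 ± 84.4 in 1 % CTRL. It ran from 828 to 915 in 5 % CTRL and from 851 to 1071 in 1 % CTRL, where replicate 1 was the highest.

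Among the CDK inhibitors, Cdkn1b (p27), which restrains cyclin E-CDK2 and maintains quiescence, changed most. In 5 % CTRL it lay at 701, 756 and 788 normalized counts at the lowest, median and highest, and in 1 % CTRL at 1480.4, 1641 and 1661. The groups were far apart, with the lowest 1 % CTRL library well above the highest 5 % CTRL library. Its mean rose from 754 ± 34.2 to 1603 ± 71.8 (SD, n = 6), a log2 difference of 1.09 (SE 0.043, limma adjusted p = 3.63e-21), and 1.08 without replicate 1 of 1 % CTRL. Its share of the CIP/KIP transcripts per kb went from 1.52 % to 3.22 %.

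Cdkn1a and Cdkn2c were not called. Cdkn1a held 36559.7, 37676.5 and 39689 normalized counts at the lowest, median and highest in 5 % CTRL and 34109, 38056 and 39007 in 1 % CTRL. These ranges overlapped almost entirely, with a log2 difference of -0.01 and a 95 % confidence interval from -0.08 to 0.06. Cdkn2c was at 259 and 267 normalized counts at the median (log2 difference -0.01, 95 % confidence interval -0.16 to 0.14). Without replicate 1 of 1 % CTRL, the lowest library of its group for both genes, the log2 differences were 0.01 for Cdkn1a and 0.05 for Cdkn2c, so that their signs rested on it, and neither was called. Cdkn1c (p57), an imprinted inhibitor that cooperates with p21 in muscle, was at 102, 137 and 156 normalized counts in 5 % CTRL and at 97.1, 104 and 125 in 1 % CTRL. The log2 difference of -0.29 (limma adjusted p = 0.0399) was close to the threshold: it was lost when any of replicates 1, 2, 3 and 6 of 5 % CTRL or 1 to 4 of 1 % CTRL was left out, with adjusted p-values over all leave-outs from 0.0127 to 0.102. Cdkn2d, the INK4 inhibitor outside the member list, rose by 0.45 on the log2 scale from 193 to 264 normalized counts (limma adjusted p = 4.12e-05).

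All 3 D cyclins were lower in 1 % CTRL. Ccnd3, the D cyclin that persists in differentiated muscle, held 7376, 7774 and 8262 normalized counts at the lowest, median and highest in 5 % CTRL and 5791, 6781 and 6849 in 1 % CTRL. No library of one group reached the range of the other, and replicate 1 of 1 % CTRL was the lowest (log2 difference -0.23, limma adjusted p = 2.00e-06, and -0.20 without it). Ccnd2, a D cyclin of growth-stimulated cells, ranged from 1154 through 1211 to 1289.6 in 5 % CTRL and from 926 through 975 to 1064 in 1 % CTRL, without overlap, and fell by 0.32 on the log2 scale (limma adjusted p = 5.53e-08), or by 0.30 without replicate 1 of 1 % CTRL. Ccnd1, the D cyclin that links growth factor signals to the cycle in myoblasts, was at 2123, 2217 and 2434 against 1881, 2048 and 2192. Its groups overlapped, and it fell by 0.14 on the log2 scale (limma adjusted p = 0.00966), by 0.11 without replicate 1 of 1 % CTRL (limma adjusted p = 0.0290), or by 0.05 with no call after rescaling to the same total. The D cyclin sum per kb was 1492 ± 45.3 in 5 % CTRL and 1292 ± 68.0 in 1 % CTRL.

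**Figure D3:**
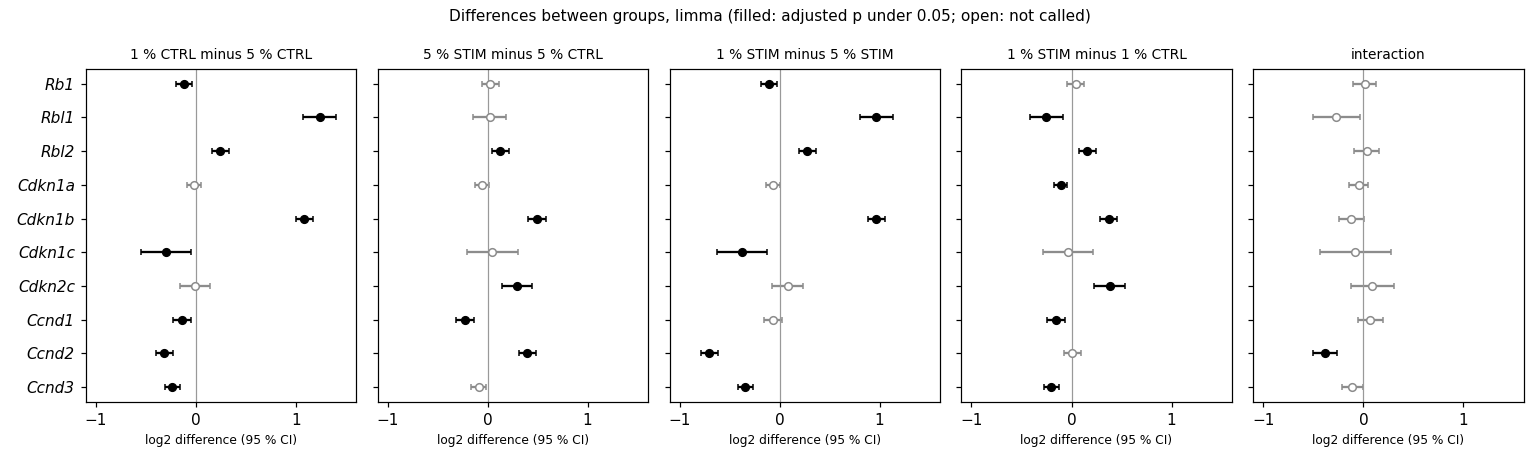
Log2 differences of log2(normalized count + 1) with 95 % confidence intervals (x axis) for each member (rows) in the 4 pairwise comparisons and the interaction of O2 and stimulation. Rbl1 and Cdkn1b lie near 1 in both O2 comparisons, Cdkn1b lies above 0 in both stimulation comparisons, and Ccnd2 alone is called in the interaction.

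Electrical stimulation at 5 % O2 was addressed by comparing 5 % STIM with 5 % CTRL. The paper states that the medium was changed before and after stimulation, and the part of this in the differences was not tested. Cdkn1b, Ccnd2, Cdkn2c and Rbl2 rose and Ccnd1 fell, so that 4 members were higher and 1 lower, against 21.4 % of all genes tested that were called (9.44 % higher and 12 % lower). The groups did not overlap for 4 members, Cdkn1b, Cdkn2c, Ccnd1 and Ccnd2, and for 11.1 % of all genes. The median log2 difference was 0.04 for the members and -0.0076 for all genes. After rescaling, 12.8 % of all genes were higher and 7.79 % lower, and the members called were the same in number. This comparison shares its 5 % CTRL libraries with the one above.

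Cdkn1b rose again, to 996, 1035 and 1232 normalized counts at the lowest, median and highest in 5 % STIM. All 6 libraries lay above 5 % CTRL and below 1 % CTRL, with replicate 1 apart at the top and the other 5 at 1061 or less. The mean of 1062 ± 86.1 (SD, n = 6) corresponds to a log2 difference of 0.49 (SE 0.043, limma adjusted p = 4.62e-11), and without that replicate to 0.45, the lowest value over all leave-outs. Ccnd2 went the other way from its response to 1 % O2. It held 1495, 1588 and 1721 normalized counts in 5 % STIM, above every 5 % CTRL library, with a mean of 1603 ± 87.2 against 1218 ± 52.4 (SD, n = 6), a log2 difference of 0.40 (SE 0.042, limma adjusted p = 4.18e-09). Cdkn2c, which rises late in myoblast differentiation, was at 298, 316 and 355 in 5 % STIM and at 239, 259 and 285 in 5 % CTRL. Its groups did not overlap and the log2 difference was 0.29 (limma adjusted p = 0.00372).

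Ccnd1 was lower after stimulation, at 1750.1, 1907 and 2109 normalized counts, all below the lowest 5 % CTRL library, and fell by 0.23 on the log2 scale (limma adjusted p = 0.000275). Rbl2 overlapped between groups and rose by 0.13 (limma adjusted p = 0.0302), a call lost when replicate 2, 3 or 6 of 5 % CTRL or replicate 1 or 3 of 5 % STIM was left out, with log2 differences over all leave-outs from 0.11 to 0.15. Rb1 (0.03), Rbl1 (0.02), Cdkn1a (-0.06), Cdkn1c (0.05) and Ccnd3 (-0.09) were not called, as log2 differences. The Ccnd3 value was called when replicate 2 of 5 % STIM was left out (-0.11, limma adjusted p = 0.0329), and its 95 % confidence interval with all libraries ran from -0.17 to -0.01. For Rbl1 the interval was -0.15 to 0.18, so that a change of the size seen with 1 % O2 lay outside it.

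In stimulated myotubes, the comparison of 1 % STIM with 5 % STIM asks whether O2 acted in the same way. Of the members, 3 were higher and 4 lower, against 57.4 % of all genes called (29 % higher and 28.4 % lower), and 5 did not overlap, against 37.3 % of all genes. The median log2 difference was -0.06 for the members and -0.0008 for all genes. After rescaling, 37.6 % of all genes were higher and 21.9 % lower. Rbl1 held 188, 233 and 267 normalized counts at the lowest, median and highest in 5 % STIM and 413, 443 and 528 in 1 % STIM. The groups were fully apart, with a log2 difference of 0.97 (limma adjusted p = 3.28e-12). Cdkn1b rose from 1062 ± 86.1 to 2075 ± 60.8 (SD, n = 6), a log2 difference of 0.97 (limma adjusted p = 1.15e-19), and Rbl2 rose by 0.28 (limma adjusted p = 1.19e-06), from a median of 1649 to 1996 normalized counts.

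Ccnd2, on chromosome 6 from 127125162 to 127152193, showed its largest difference here. From 1495, 1588 and 1721 normalized counts in 5 % STIM it went to 929, 989 and 1059 in 1 % STIM. The gap between the groups exceeded the range within either, and the log2 difference was -0.70 (SE 0.042, limma adjusted p = 3.47e-16). Ccnd3 also fell without overlap, from a median of 7163 to 5802 normalized counts (log2 difference -0.34, limma adjusted p = 1.20e-09). Cdkn1c fell by 0.37 on the log2 scale, from 136 to 107 normalized counts at the median, with overlapping groups (limma adjusted p = 0.00989). Rb1 fell by 0.10 (limma adjusted p = 0.0290), a call lost when replicate 1, 3 or 5 of 5 % STIM or replicate 1 or 5 of 1 % STIM was left out (log2 differences from -0.12 to -0.09) and at -0.03 after rescaling to the same total. Cdkn1a (-0.06), Cdkn2c (0.08) and Ccnd1 (-0.06) were not called, although the Cdkn1a value of -0.08 without replicate 4 of 1 % STIM was (limma adjusted p = 0.0418).

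Stimulation at 1 % O2 was examined by comparing 1 % STIM with 1 % CTRL. Here 3 members rose and 4 fell, against 22.3 % of all genes called (11.5 % higher and 10.8 % lower), and the groups of 1 member, Cdkn1b, did not overlap, against 11.2 % of all genes. The median log2 difference was -0.01 for the members and -0.0031 for all genes. After rescaling, 14.7 % of all genes were higher and 8.89 % lower. Cdkn1b held 2007, 2060.2 and 2175 normalized counts at the lowest, median and highest in 1 % STIM, all above 1 % CTRL. The log2 difference was 0.37 (SE 0.043, limma adjusted p = 1.82e-08), and 0.38 without replicate 1 of 1 % CTRL. Cdkn1b thus had 4 groups without overlap, in the order 5 % CTRL, 5 % STIM, 1 % CTRL and 1 % STIM, and its share of the CIP/KIP transcripts per kb was 1.52 %, 2.22 %, 3.22 % and 4.43 % in that order.

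Cdkn2c rose by a log2 difference of 0.38 (limma adjusted p = 0.000174), and by 0.32 without replicate 1 of 1 % CTRL, whose 209 normalized counts lay below the 265 to 291 of its group. Rbl2 rose by 0.16 (limma adjusted p = 0.00587), and by 0.20 without that library. Ccnd3 fell by 0.20 (limma adjusted p = 0.000103) to 5445, 5802 and 6019 normalized counts at the lowest, median and highest. These values lay below the other 5 libraries of 1 % CTRL and around replicate 1, and the log2 difference without that replicate was -0.24 (limma adjusted p = 2.55e-07). Ccnd1 fell by 0.16 (limma adjusted p = 0.0101), and by 0.18 without it. Cdkn1a fell by 0.11 (limma adjusted p = 0.0175), from medians of 38056 to 34401 normalized counts, and by 0.14 without replicate 1 of 1 % CTRL (limma adjusted p = 0.00107). This call was lost without replicate 2 of 1 % STIM (-0.09, limma adjusted p = 0.0616) and after rescaling to the same total (-0.09, limma adjusted p = 0.0660).

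The response of Rbl1 to stimulation at 1 % O2 depended on single libraries. It fell by 0.25 on the log2 scale with all libraries (limma adjusted p = 0.0223), and the call was lost without replicate 1 of 1 % CTRL (-0.17, limma adjusted p = 0.0741) or replicate 4 of 1 % STIM. Rb1 was not called with all libraries (log2 difference 0.04) but was without replicate 1 of 1 % CTRL (0.09, limma adjusted p = 0.0387). Cdkn1c (-0.03) and Ccnd2 (0.01) were not called. For Ccnd2 the 95 % confidence interval of -0.08 to 0.09 lay below the response of 0.40 seen at 5 % O2.

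The interaction, the response to stimulation at 1 % O2 minus that at 5 % O2, tested directly whether the responses differed. Ccnd2 was the only member called, against 11.3 % of all genes tested (5.88 % higher and 5.43 % lower). Its interaction was -0.39 (SE 0.059, limma adjusted p = 1.77e-05), -0.40 without replicate 1 of 1 % CTRL, and called in all 24 leave-outs. The 4 group means of Ccnd2 were 1218, 978, 1603 and 983 normalized counts in 5 % CTRL, 1 % CTRL, 5 % STIM and 1 % STIM, so that the stimulated and unstimulated groups at 1 % O2 nearly coincided. Rbl1 (-0.27, limma adjusted p = 0.131) was called without replicate 6 of 5 % STIM (-0.33, limma adjusted p = 0.0442), and Ccnd3 (-0.11, limma adjusted p = 0.191) without replicate 1 of 1 % CTRL (-0.15, limma adjusted p = 0.0177). With that 1 % CTRL library left out, 15.9 % of all genes were called in the interaction. For Cdkn1b the interaction was -0.12 with a 95 % confidence interval of -0.24 to 0.003.

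The genes whose levels ran most like those of the 3 most variable members were found by Pearson's r over the 24 libraries among the 10795 genes whose mean normalized count reached 100. For Cdkn1b they were Kank1 (r = 0.981), Zbed3 (0.979) and Trim56 (0.979). Rbl1 ran most like Atad2 (0.989), Pole (0.987) and Rpa1 (0.985). Ccnd2 ran most like Sh2b3 (0.965), Tnfaip2 (0.961) and Gpt2 (0.960). These correlations are descriptions over libraries that share their groups.

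**Figure D4:**
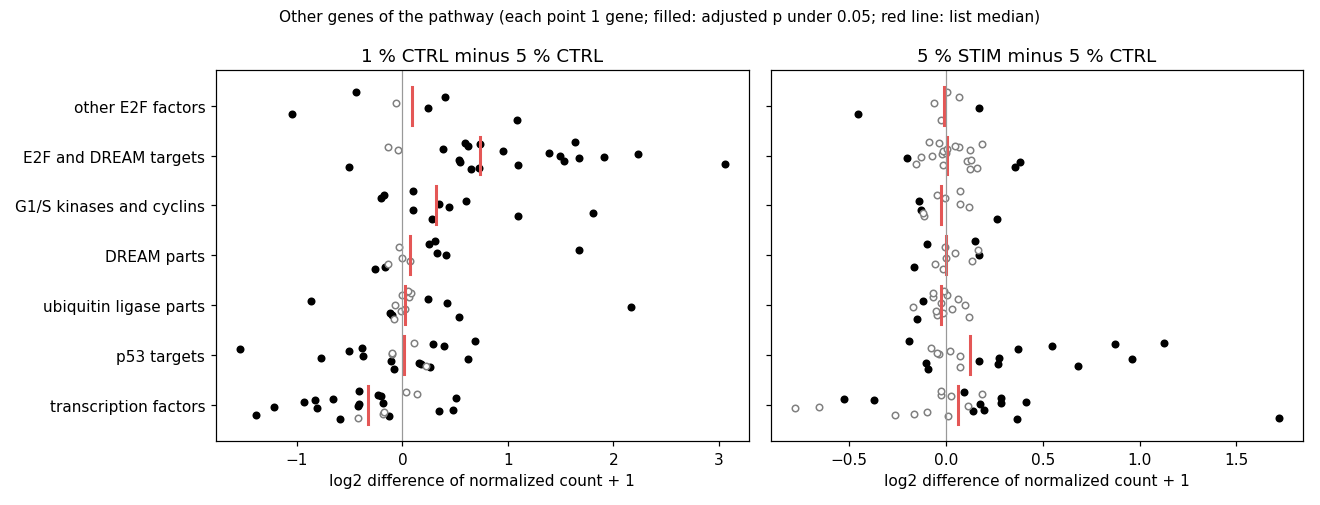
Log2 differences of log2(normalized count + 1) (x axis) for the genes of 7 lists around the members (rows), in 1 % CTRL against 5 % CTRL and in 5 % STIM against 5 % CTRL, with filled points for an adjusted p-value under 0.05 and red lines for list medians. E2F and DREAM targets lie mostly to the right in the O2 comparison and around 0 in the stimulation comparison.

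Downstream of the pocket proteins, E2F and DREAM targets, which encode the S-phase and mitosis machinery, were higher in 1 % CTRL than in 5 % CTRL for 18 of 21 genes and lower for 1, with and without replicate 1 of 1 % CTRL, beside 29.4 % of all genes higher and 30.5 % lower. The median log2 difference was 0.74 in the list and 0.0015 over all genes. The replication licensing genes Cdc6 (3.06), Mcm5 (2.23) and Mcm3 (1.91) rose most, as log2 differences. Ccnb1 was the gene that fell (-0.50), and Mki67 was among those not called (-0.04). In 5 % STIM, 2 targets were higher and 1 lower than in 5 % CTRL, beside 21.4 % of all genes called. Between 1 % CTRL and 1 % STIM none rose and 12 fell, beside 11.5 % and 10.8 % of all genes, or 1 rose and 10 fell without replicate 1 of 1 % CTRL, beside 14.1 % and 11.7 %. Of the dividing-cell markers, 4 of 6 rose and 1, Ccnb1, fell in 1 % CTRL, where 59.9 % of all genes were called in either direction. The other marker, Mki67, was not called. The 6 markers summed to 3322 to 3831 normalized counts in 5 % CTRL and 3916 to 6208 in 1 % CTRL (5046 at most without replicate 1). Their sums were 3769 to 4464 in 5 % STIM and 4041 to 5203 in 1 % STIM. All 6 dividing-cell markers are also in the target list. Of the markers of myoblasts or reserve cells, 3 of 6 rose and 3 fell in 1 % CTRL, beside the same 59.9 % of all genes. Without replicate 1 of 1 % CTRL 3 rose and 2 fell, where 61.6 % of all genes were called. The part of cell composition in the Rbl1 and Cdkn1b differences was not tested.

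Among E2F factors outside the DREAM complex, 3 of 6 rose and 2 fell in 1 % CTRL, beside 29.4 % and 30.5 % of all genes. E2f1 rose by 1.09 on the log2 scale, from a mean of 368 to 783 normalized counts. E2f2 fell by 1.05, from 6083 to 2938, and E2f8 by 0.44, from 1518 to 1117. Of 11 DREAM parts, 5 rose and 2 fell, a share called that is close to the 59.9 % of all genes. The largest differences were those of Mybl2 (1.68), the MYB protein that replaces the pocket proteins on this complex in cycling cells, Lin54 (0.42) and Lin9 (0.33). In 5 % STIM 2 of these parts were higher and 2 lower, beside 21.4 % of all genes called. After rescaling to the same total the split was 2 and 1, beside 12.8 % and 7.79 % of all genes.

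The kinases and cyclins of G1 and S phase act on the pocket proteins and are bound by the inhibitors. Of 10 such genes, 8 rose and 2 fell in 1 % CTRL, beside 29.4 % and 30.5 % of all genes, or 6 and 2 without replicate 1, beside 30.7 % and 30.9 %. Ccne2 (1.81) and Ccne1 (1.10), the E cyclins restrained by p27, and Cdk4 (0.60), the partner of the D cyclins, had the largest log2 differences. In 5 % STIM 1 was higher and 2 were lower, among them Cdk4 (-0.14), beside 9.44 % and 12 % of all genes. The split was 2 and 1 after rescaling to the same total, beside 12.8 % and 7.79 %.

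Ubiquitin ligase parts, which set the stability of the inhibitors and D cyclins as proteins, were split: 4 of 15 rose and 3 fell in 1 % CTRL, a share called below the 59.9 % of all genes. Without replicate 1 of 1 % CTRL 4 rose and 4 fell, beside 30.7 % and 30.9 % of all genes. After rescaling to the same total 9 rose and 1 fell, beside 39 % and 23.2 % of all genes. Dtl, the substrate receptor for p21 in S phase, rose by 2.16 on the log2 scale, Cks1b, the cofactor for p27 degradation, by 0.54, and Fbxw7, the receptor for cyclin E, fell by 0.87. In 5 % STIM none was higher and 2 were lower, beside 9.44 % and 12 % of all genes. After rescaling the split was 2 and 1, beside 12.8 % and 7.79 %.

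Of 18 other genes that p53 activates alongside Cdkn1a, 7 rose and 7 fell in 1 % CTRL, beside 29.4 % and 30.5 % of all genes. After rescaling to the same total 8 rose and 5 fell, beside 39 % and 23.2 % of all genes. Without replicate 1 of 1 % CTRL 8 rose and 6 fell, beside 30.7 % and 30.9 %. Plk3, a stress-responsive kinase, fell by 1.54. In 5 % STIM, 9 rose and 3 fell, beside 9.44 % and 12 % of all genes, or 10 and 1 after rescaling, beside 12.8 % and 7.79 %. Trp53inp1, a p53 cofactor, rose by 1.12 there and by 1.48 between 1 % CTRL and 1 % STIM, and the proapoptotic Bbc3 by 0.68 and 1.05, all as log2 differences, beside the Cdkn1a values of -0.06 and -0.11. Of 22 transcription factors known to act on Cdkn1a or D cyclin genes, 3 rose and 14 fell in 1 % CTRL, beside 29.4 % and 30.5 % of all genes, or 5 and 13 after rescaling, beside 39 % and 23.2 %. With replicate 1 of 1 % CTRL left out, 3 rose and 13 fell, beside 30.7 % and 30.9 %. Those with the largest differences included Egr1 (-1.39), Id3 (-1.22) and Myod1 (-0.83), the myogenic factor that activates Cdkn1a in differentiation. In 5 % STIM 9 of these factors rose and 2 fell, beside 9.44 % and 12 % of all genes, and without replicate 1 of 1 % CTRL, which enters the shared estimate of the spread, 9 rose and 4 fell, beside 10.7 % and 13.1 %. Of the myotube markers, 6 of 10 fell and none rose in 1 % CTRL, beside 30.5 % and 29.4 % of all genes. With replicate 1 of 1 % CTRL left out, 6 fell and 1 rose, beside 30.9 % and 30.7 %. Myog (-0.66), Myh3 (-0.40) and Myh8 (-0.40) had the largest log2 differences. After rescaling to the same total, 3 fell and 3 rose, beside 23.2 % and 39 % of all genes. Their direction as a group thus depended on the scaling.

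Annotation limits the reading of some members, since neither the labels nor the methods say that reads were counted by strand. Exons of antisense genes cover 30.7 % of the exon length of Cdkn1c, 23.4 % of that of Ccnd1 (LTO1), 21 % of that of Rbl2 (Aktip) and 14.9 % of that of Rb1 (Rcbtb2 and Lpar6). The shares were 7.86 % for Ccnd2, 7.68 % for Cdkn1a and 4.11 % for Ccnd3 (Bysl), and reads of such pairs cannot be told apart there. Rbl1, Cdkn1b and Cdkn2c have no such overlap. The antisense gene over Cdkn1c had 0 reads.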

How the data were processed

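RNA of 24 C2C12 cultures in 4 groups of 6 was sequenced by the authors from stranded mRNA libraries (single end), aligned to GRCm38 with STAR 2.5.4b and quantified per gene with RSEM 1.3.0. For each gene the authors deposited a signal, its read count over the size factor that DESeq2 gave the library. A second deposited file holds fold changes and p-values of the authors' own comparisons and was not used. Whole reads were recovered from the smallest step of each library (tolerance 0.001, 100 % of values whole). For replicate 5 of 5 % CTRL and replicate 3 of 5 % STIM, whose size factors of 0.992 and 0.991 are close to 1, this recovery could not be checked independently. It gave 26541858 to 28173745 reads and size factors of 0.955 to 0.992 at 5 % O2 and 1.02 to 1.05 at 1 % O2. Of 55487 genes, 55227 were found in GENCODE M21, which gave symbols and exons.

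A gene was tested if its normalized count reached 10 in 6 or more of the 24 libraries (14541 genes). These entered 1 limma 3.58.1 fit of the 4 groups (R 4.3.3, eBayes with trend and robust) on log2(normalized count + 1), two-sided, with Benjamini-Hochberg adjustment over all genes tested and a threshold of 0.05. This scale understates the change of low genes. The fit was tested on simulated data. The alternatives were no filter, a pseudocount of 10, a block for the replicate number, rescaling to the same total, array weights, a covariate for each library's slope on exon length (length slope covariate), the compared groups alone, edgeR 4.0.16, DESeq2 1.42.0 and voom on whole reads, and each replicate left out. List counts without replicate 1 of 1 % CTRL and after rescaling were added after seeing the data.

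Members and lists were chosen with earlier results of these data known. Besides the members, the text names up to 3 called genes of each list with the largest log2 difference in any pairwise comparison whose higher group had a mean of 50 or more, and for the 3 members with the widest range of group means the 3 genes with the highest r.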

Additional observations from a re-analysis of the deposited data

Results flagged for a closer look

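Of 40 groups of 6 libraries (10 members in 4 groups), 8 held a library apart from the others by Dixon's criterion. For a single group, chance flags about 1 in 20. The members share the same libraries, so the 40 groups are not independent and 1 in 20 is no reference for the number flagged. The share flagged over all genes was not counted. Replicate 1 of 1 % CTRL accounted for 6 of them. It held 4054 normalized counts of Rb1 (nearest library 3459), 718 of Rbl1 (nearest 522) and 2097 of Rbl2 (nearest 1785), all above its group. In the same library, Cdkn1a at 34109 (nearest 37694.5), Cdkn2c at 209 (nearest 265) and Ccnd3 at 5791 (nearest 6728) lay below it. The other values apart were Cdkn1a in replicate 2 of 5 % STIM at 38767 (nearest 36369.7) and Cdkn1b in replicate 1 of 5 % STIM at 1232 (nearest 1061). In replicate 1 of 1 % CTRL the slope of the deviations on exon length was 0.314, against -0.12 to 0.18 in the other 23 libraries, and its part in these values was not tested.

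The response of Ccnd2 to stimulation differed between 1 % and 5 % O2, with an interaction of -0.39 on the log2 scale (limma adjusted p = 1.77e-05). All 6 libraries of 5 % STIM lay above the mean of 5 % CTRL.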

How the results depend on the processing

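Over the 9 or 10 alternatives per result, 472 of 490 values of single members kept their side of the threshold, 10 were no longer called and 8 were newly called. No called value changed sign, and values that were not called had the other sign in 10 cases. Members called in 1 % CTRL against 5 % CTRL fell from 8 to 5 after rescaling to the same total. Of all genes, 59.9 % were called before rescaling and 62.2 % after it. With the length slope covariate, Rb1, Cdkn1a and Ccnd3 were also called in 5 % STIM against 5 % CTRL. In the interaction, Ccnd3 was also called with array weights, and Rbl1 (-0.36) with the length slope covariate. The share of all genes called under these fits is not given here. The cause was not tested. Leaving out each library in turn gave 7 to 8 called members for O2 at rest and 4 to 6 for stimulation at 5 % O2. It gave 6 to 8 for O2 in stimulated myotubes and 6 to 7 for stimulation at 1 % O2. For the interaction it gave 1 to 2, and the call of 10 of 50 member results changed. The share of all genes called moved as well. Without replicate 1 of 1 % CTRL it was 61.6 % for O2 at rest, against 59.9 % with all libraries. For stimulation at 1 % O2 it was 25.8 % against 22.3 %, and for the interaction 15.9 % against 11.3 %. This share is not given here for the other leave-outs. Replicate numbers are shared by the groups, but same-numbered libraries did not deviate together (correlations of -0.15 to 0.15, with 1 to 2 of 6 libraries closest to their own number). The main fit did not pair samples by number, and a weak pairing was not excluded. With the replicate block, 8, 5, 7, 7 and 1 members were called in the 5 comparisons, as without it. Rescaling moved the median of all genes to 0.08 for O2 at rest and 0.07 in stimulated myotubes. At this depth Cdkn1c, at about 120.6 normalized counts, had the widest intervals among the members. On whole reads, edgeR's quasi-likelihood test called 8744, 3097, 8384, 3347 and 1660 genes in the 5 comparisons, against 8708, 3115, 8346, 3245 and 1645 with limma.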
